A study of Mus musculus with 16 samples.

Results

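The genes described here are 31 nuclear receptors and coregulators of the deposited gene table, which holds 45777 genes. They are the steroid, thyroid, retinoid and vitamin D receptors, the orphan receptors and 5 coregulators, matched by gene symbol, with the PPAR, LXR and REV-ERB receptors left aside. All 31 were in the table. Of these, 29 passed the filter on low counts and were among the 19189 genes tested, while Esr2 and Nr0b2 did not pass. RNA came from the epididymal white adipose tissue of male mice, the visceral fat pad beside the epididymis. The OE mice (A-LTA4HOE) overexpress LTA4H, the leukotriene A4 hydrolase, in adipocytes, and the Ctrl mice are their controls. All 16 mice ate the high-fat diet HFD22 from 4 weeks of age. Tissue was taken at 8 weeks of age, after 4 weeks of diet, or at 20 weeks of age, after 16 weeks of diet, which gave 4 groups of 4 libraries. The sources used here do not say which promoter drives the transgene. Every mouse ate the high-fat diet, so age and diet duration cannot be told apart, nor can any batch that followed age.

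Nuclear receptors are transcription factors that bind DNA and change the activity of nearby genes, many of them when a lipid-soluble hormone or metabolite occupies their ligand pocket. The receptors for oestrogen, glucocorticoid, progesterone and mineralocorticoid are kept ready for hormone by HSP90 chaperone complexes, whereas the thyroid and retinoic acid receptors sit on DNA as partners of the RXR receptors. Coactivators such as the NCOA proteins recruit acetyltransferases to the bound receptor, and corepressors such as NCOR1 and NRIP1 recruit deacetylases. In adipose tissue, glucocorticoid and thyroid hormone act on adipocyte differentiation and lipolysis, and oestrogen signalling restrains the growth of visceral fat.

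Total counts ran from 33.6 to 67.6 M per library. The overexpressed gene, Lta4h, had 398, 251, 427 and 335 CPM (counts scaled by library size) in OE replicates 1 to 4 at 8 weeks against 104, 79.4, 85.4 and 90.03 CPM in Ctrl. At 20 weeks it had 270.3, 286, 278 and 239 CPM in OE against 95.4, 82.4, 89.0 and 87.3 CPM in Ctrl. All OE libraries lay above all Ctrl libraries at both ages (exact permutation test, two-sided p = 0.0286 at each age, the smallest that 4 against 4 allows), as their labels say. Adipocyte markers were abundant in every library, and their 12 genes summed to 25191 to 32682 CPM in Ctrl at 8 weeks and 10868 to 19286 CPM at 20 weeks, and to 20341 to 40058 and 13649 to 26251 CPM in OE. The sum of the 12 macrophage markers moved the other way. It went from 1008 to 1631 CPM up to 5264 to 9223 CPM in Ctrl and from 1231 to 2196 CPM up to 3299 to 8742 CPM in OE. Of the 12, 11 were called higher and 1 was not called in Ctrl, and 11 were higher and 1 lower in OE. The 10 endothelial markers went from 1184 to 1535 CPM down to 656 to 929 CPM in Ctrl and from 1163 to 1602 CPM down to 660 to 1332 CPM in OE. In bulk libraries, fewer cells of a type and less RNA per cell cannot be told apart, and the part of these shifts in the results below was not tested. OE replicate 1 at 20 weeks stood apart from the other 20-week libraries on the first principal component (22.4 against −96.6 to −66.7). It had the highest adipocyte and the lowest macrophage sum of its group. Replicates numbered 1 at 8 weeks stood apart on the second component (−94.2 in Ctrl and −91.8 in OE). They also lay apart on the first, at −29.9 in Ctrl and −19.5 in OE, against 68.8 to 125 in the other 8-week libraries. Both lay below OE replicate 1 at 20 weeks there, so the first component did not fully separate the ages. Ctrl replicate 4 and OE replicate 2 at 8 weeks carried epididymal transcripts, with 4095 and 2703 CPM summed over 12 epididymal genes against 1.78 to 208 CPM in the other 8-week libraries and 0.108 to 4.17 CPM at 20 weeks, and the highest smooth muscle sums (4102 and 4072 CPM, against at most 1201 elsewhere).

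On the per-length TPM scale (transcript abundance, as deposited), the most abundant of the genes was Thra, the thyroid hormone receptor alpha gene, with a mean of 73.2 TPM over the 16 libraries. Nr3c1, the glucocorticoid receptor gene, followed with 51.9 TPM, Esrra with 45.5, Ncor1 with 40.6 and Rxrb with 33.7. The order moved between ages. Esr1, the oestrogen receptor alpha gene, ranked ninth at 8 weeks in both genotypes, at 22.2 ± 7.42 TPM in Ctrl and 20.9 ± 9.25 in OE (SD, n = 4), and eighteenth at 20 weeks, at 6.29 ± 0.953 and 7.74 ± 2.65. Ncoa3, a steroid receptor coactivator gene, went the other way, from 16.99 ± 4.39 to 33.3 ± 4.98 TPM in Ctrl and from 18.6 ± 5.38 to 28.3 ± 4.62 in OE. At 20 weeks in Ctrl, Esrra (52.7 ± 3.72) and Thra (51.3 ± 4.05) did not differ beyond their spread. Rara and Ncoa2, neighbours in the order at 19.2 TPM each, did not differ beyond their SD at 20 weeks in Ctrl (18.98 ± 1.15 and 18.7 ± 0.426). The genes with the lowest levels were Nr0b2 at 0.0531, Pgr at 0.0427 and Esr2 at 0.0267 TPM.

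**Figure D1:**
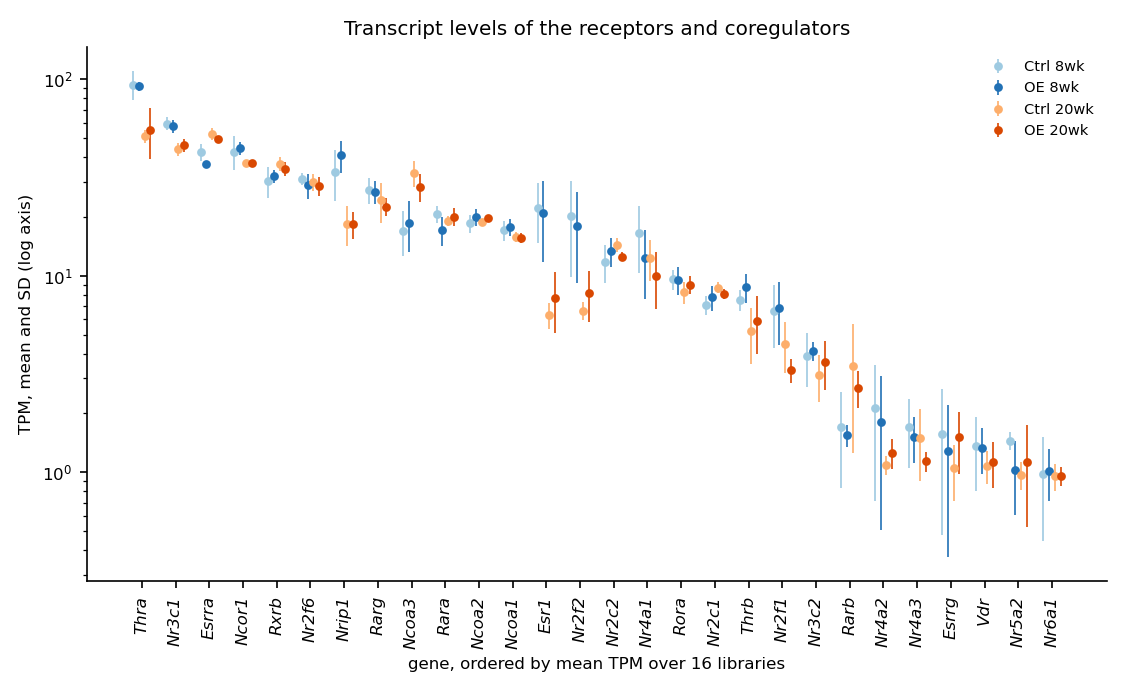
TPM (log axis, mean with SD as bars, n = 4 libraries) in each group for the genes with a mean over 0.5 TPM, ordered by their mean over 16 libraries. Thra and Nr3c1 lead the order, and Esr1, Nr2f2, Nrip1 and Ncoa3 differ between the 8-week (blue) and 20-week (orange) groups in both genotypes.

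In Ctrl, 9 of the 29 genes tested were lower at 20 weeks than at 8 weeks and 1 was higher, where the call was an edgeR adjusted p under 0.05. Over all genes tested, 40.9% were called in that comparison, 21.3% lower and 19.6% higher. In OE, 8 of 29 were lower and 2 higher, beside 23.0% called over all genes, 9.91% lower and 13.1% higher. The lower genes in both genotypes were Esr1, Nr3c1, Thra, Nr2f2, Ncor1, Ncoa1 and Nrip1. Thrb and Pgr were called in Ctrl only and Nr2f1 in OE only, and Ncoa3 was the gene called higher in both. The difference between the genotypes' age changes was called by edgeR for none of the 29 genes and for 0% of all genes, so none of the 29 is shown to differ between them. DESeq2 also called none of the 29, and over all genes it called 20 higher and 10 lower. The median log2 fold change of the 29 was −0.29 in Ctrl and −0.25 in OE, against −0.05 and −0.03 for all genes tested, and 23 of 29 values were negative in Ctrl and 21 in OE. Placing Pgr, absent at 20 weeks in Ctrl, at its bound could not change the Ctrl median, since its fitted value and its bound both lie below it. In Ctrl, all 20-week libraries lay below all 8-week libraries for 9 of the 29 genes and above for 2. Over all genes tested those shares were 14.8% and 18.5%. In OE, 7 genes lay below and 2 above, beside 9.50% and 12.9% of all genes. These shares are the background for each gene said below not to overlap between the ages. The shares called over all genes, 40.9% in Ctrl and 23.0% in OE, are the background for the counts of other gene lists below.

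The counts in OE fell to 4 lower and 0 higher without OE replicate 2 at 20 weeks. Over all genes the calls in OE fell too, from 1902 to 1036 lower and from 2509 to 1830 higher. With 2 surrogate variables added, 2 of the 9 genes lower in Ctrl (Esr1 and Nr2f2) and 5 of the 8 lower in OE (Esr1, Nr3c1, Nr2f1, Nr2f2 and Nrip1) were still called. In that fit the log2 fold changes were −0.91 in Ctrl and −0.79 in OE for Esr1, −0.999 and −0.599 for Nr2f2, and 0.41 and 0.31 for Ncoa3. Over all 19189 genes, the same fit called 675 lower in Ctrl and 1078 lower in OE, against 4083 and 1902 in the main fit. Without the pair of libraries that carried epididymal transcripts, 8 genes were lower in Ctrl and 9 in OE, and without the 3 libraries that stood apart on the principal components 10 were lower in each. Over all genes, 4087 were lower in Ctrl and 2507 in OE without that pair, and 4607 and 3403 without the 3 libraries.

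**Figure D2:**
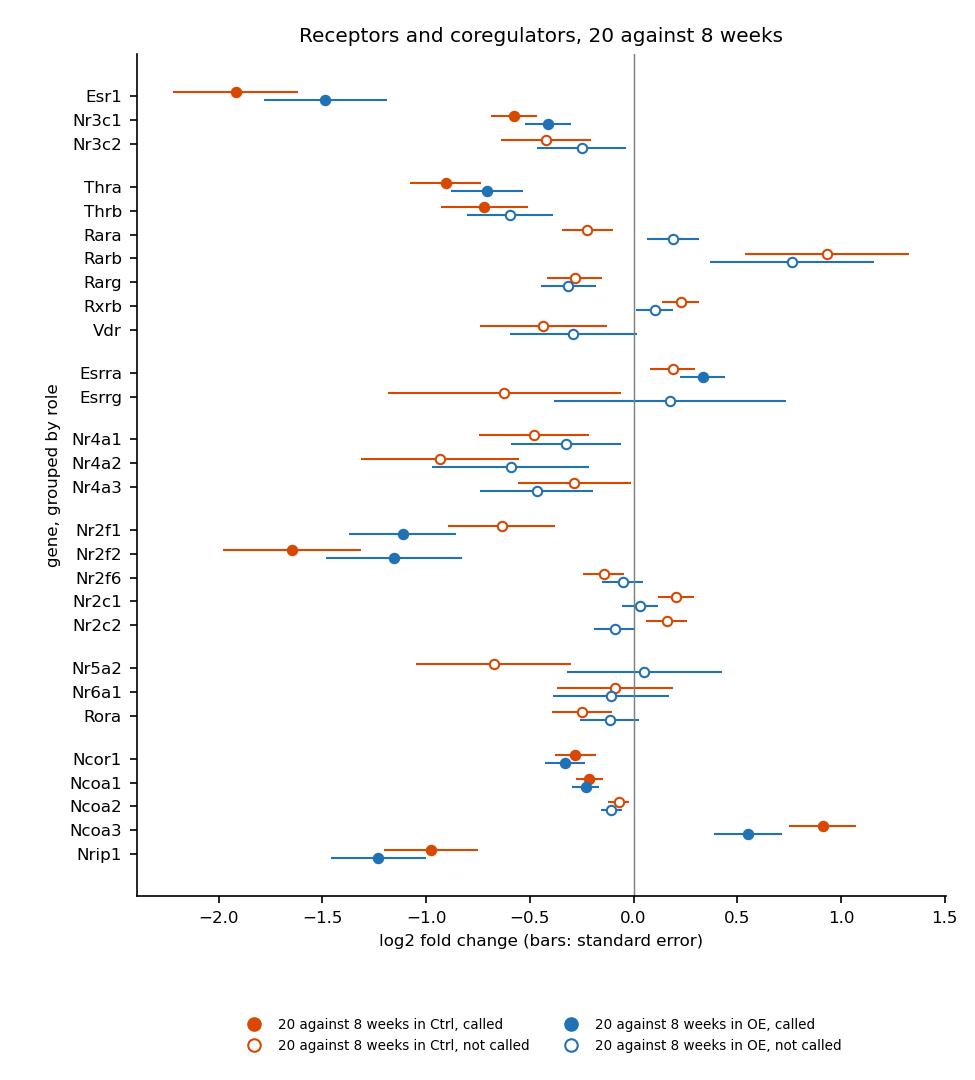
Log2 fold change of 20 against 8 weeks, with its standard error as a bar, in Ctrl (orange) and OE (blue) for 28 of the 29 genes tested, grouped by role. Filled points passed an adjusted p of 0.05. Pgr, with no count in any Ctrl library at 20 weeks, is left out. Most filled points lie below 0, and Ncoa3 is above 0 in both genotypes.

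Among the steroid hormone receptors, the oestrogen receptor gene Esr1 was lower at 20 weeks in both genotypes. Esr1 (gene ID 13982, chromosome 10, 4611989 to 5005633 on GRCm38.p6, the build mm10) had 42.2, 59.1, 89.8 and 73.8 CPM in Ctrl replicates 1 to 4 at 8 weeks and 19.9, 19.2, 15.8 and 15.2 CPM at 20 weeks. In OE it had 38.1, 53.6, 58.5 and 98.3 CPM at 8 weeks and 33.6, 17.5, 19.8 and 17.9 CPM at 20 weeks. The ages did not overlap in either genotype, and the nearest pair were both replicates numbered 1 in OE, which are among the libraries that stood apart. Esr1 fell 3.78-fold in Ctrl (log2 fold change −1.92 ± 0.30, adjusted p = 0.000339) and 2.80-fold in OE (−1.49 ± 0.30, 0.00322). It was called in all 25 alternative fits in each genotype. The RefSeq table gives 2 start sites for Esr1. The 250 bases before each are shown because Esr1 was called in every alternative fit, with the letters CCAAT, or ATTGG on the other strand, in capitals. The upstream window, chr10:4611739-4611988 on the plus strand, holds 1 such match, and the downstream window, chr10:4709908-4710157, holds 0.

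Esr1 upstream start: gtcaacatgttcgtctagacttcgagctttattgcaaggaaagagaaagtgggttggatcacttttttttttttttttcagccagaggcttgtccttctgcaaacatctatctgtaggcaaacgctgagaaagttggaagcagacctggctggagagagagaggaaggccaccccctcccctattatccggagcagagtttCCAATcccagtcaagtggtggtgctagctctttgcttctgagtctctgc
Esr1 downstream start: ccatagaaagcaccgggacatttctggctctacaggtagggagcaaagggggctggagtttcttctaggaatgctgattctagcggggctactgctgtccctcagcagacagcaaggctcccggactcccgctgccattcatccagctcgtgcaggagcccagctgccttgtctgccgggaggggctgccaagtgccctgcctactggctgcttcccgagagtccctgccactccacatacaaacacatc

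Nr3c1, the glucocorticoid receptor gene, moved less. It had 185, 221, 194 and 171 CPM in Ctrl at 8 weeks and 131, 118, 128 and 139 CPM at 20 weeks. The OE libraries had 209.5, 147, 204 and 176 CPM at 8 weeks and 155, 131, 137 and 132 CPM at 20 weeks. The ages were separate in Ctrl, whereas in OE replicate 2 at 8 weeks (a library with epididymal transcripts) lay below replicate 1 at 20 weeks. It fell 1.49-fold in Ctrl (−0.58 ± 0.11, adjusted p = 0.00132) and 1.33-fold in OE (−0.41 ± 0.11, 0.0167). The OE call was lost without OE replicate 2 or 4 at 20 weeks or replicate 1 or 3 at 8 weeks (adjusted p from 0.0504 to 0.0590), and the Ctrl call with 2 surrogate variables (−0.36, 0.0520).

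Pgr, the progesterone receptor gene and a known oestrogen target in reproductive tissue, was near the limit of detection. Ctrl libraries at 8 weeks held 0, 29, 8 and 43 reads and those at 20 weeks held 0 reads in each of 4. OE libraries held 0, 14, 6 and 21 reads at 8 weeks and 2, 0, 0 and 0 at 20 weeks. In each genotype the 8-week library without a read was the replicate numbered 1 that stood apart, and the only 20-week library with reads was OE replicate 1. Over the group totals, Pgr was at least 19.0-fold lower at 20 weeks in Ctrl, taking 3 counts over the group as the floor, a floor that covers counting error only (adjusted p = 0.0173). It was not called in OE (adjusted p = 0.0791), and with 2 surrogate variables it was not called in Ctrl (0.363). Without the epididymal pair it fell below the filter and was not tested. Testis markers also followed age in Ctrl, where 7 of 9 tested were lower at 20 weeks, and 0 of 9 were called in OE. Their 10 genes summed to 3.29 to 157 CPM at 8 weeks and 5.55 to 12.5 CPM at 20 weeks in Ctrl, and to 5.35 to 34.1 and 7.81 to 14.3 CPM in OE. The part of epididymal and testis transcripts in the Pgr result was not tested. Without the epididymal pair Esr1 was still called, at −1.86 in Ctrl (0.00111) and −1.55 in OE (0.00493). Kept libraries still held such transcripts, with 208 epididymal and 78.8 testis CPM in Ctrl replicate 3 at 8 weeks. Hnf4a, another receptor gene, had 0.0797, 7.99, 35.9 and 20.3 CPM in Ctrl at 8 weeks and 0 at 20 weeks. In OE it had 0, 13.1, 5.50 and 37.9 CPM, then 9.06, 0, 0.262 and 0.113 CPM. At 8 weeks Esr1 and Hnf4a were both highest in Ctrl replicate 3 and OE replicate 4. The part of other tissue in the Esr1 result was not tested. Esr2, the oestrogen receptor beta gene, had 26 reads in Ctrl replicate 4 and 11 in OE replicate 2 at 8 weeks, the epididymal pair, and 0 in the other 14 libraries. Nr3c2, the mineralocorticoid receptor gene, ranged from 5.85 to 13.8 CPM over all libraries and was not called, with age differences of −0.42 ± 0.22 in Ctrl and −0.25 ± 0.22 in OE.

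**Figure D3:**
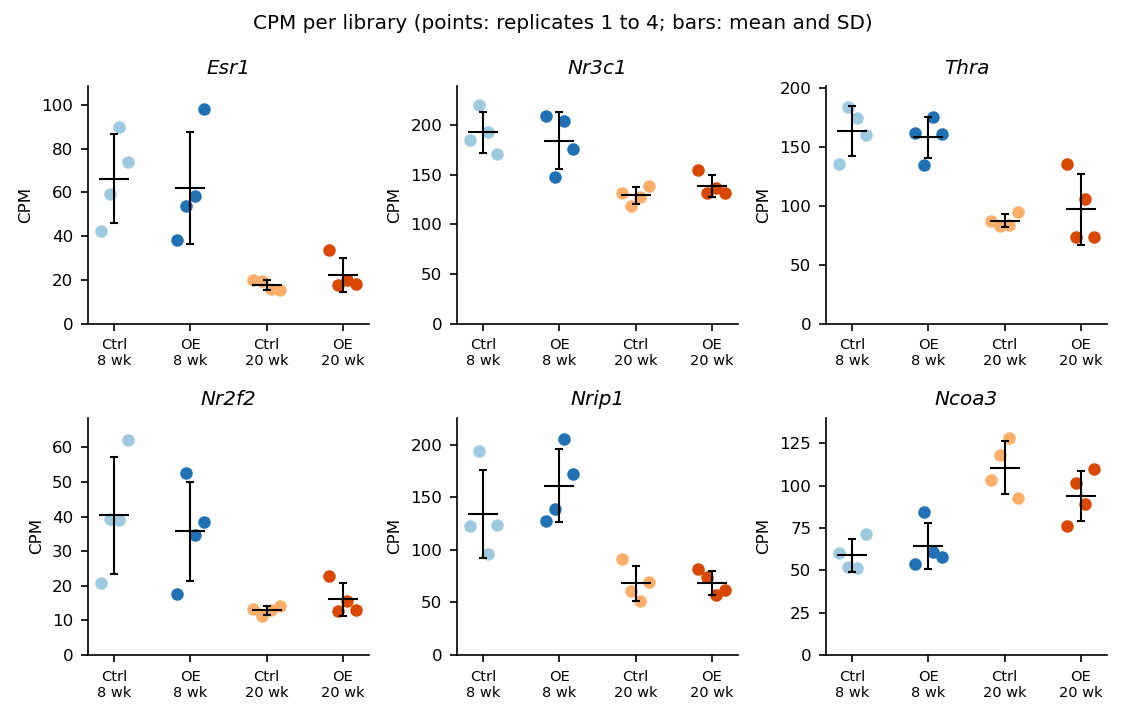
CPM per library for Esr1, Nr3c1, Thra, Nr2f2, Nrip1 and Ncoa3 in the 4 groups (points are replicates 1 to 4 from left to right, bars the mean and SD). The 20-week Ctrl points lie below the 8-week Ctrl points in all panels but that of Ncoa3, where they lie above.

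Of 22 other nuclear receptor genes listed, 14 were tested, and 7 were lower in Ctrl and 3 in OE with 0 higher (median −0.88 and −0.68). Pparg, the driver of adipocyte differentiation, fell by 1.13 on the log2 scale in Ctrl and 0.75 in OE. Rxra, the gene of the shared RXR partner, fell by 0.80 and 0.55. Ppara was lower in Ctrl (−1.18 ± 0.31) and not called in OE (−0.87 ± 0.30, 0.0528).

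Of 18 glucocorticoid response genes tested, 1 was higher and 2 lower in Ctrl, and 2 higher and 2 lower in OE (median −0.15 and −0.14). Pdk4, a kinase that restrains pyruvate oxidation, rose by 1.76 ± 0.25 in Ctrl and 0.74 ± 0.24 in OE. Pnpla2, the adipose triglyceride lipase and also in the adipocyte marker list, fell by 0.95 and 0.74. Dusp1, a MAP kinase phosphatase also among the immediate early genes, was higher in OE (0.83 ± 0.29, adjusted p = 0.0495) and not called in Ctrl (0.48 ± 0.28). The classic targets Fkbp5, Tsc22d3 and Per1, named after their values were seen, were not called. They differed by −0.32 ± 0.47, −0.15 ± 0.43 and −0.16 ± 0.54 in Ctrl and by −1.04 ± 0.47, −0.15 ± 0.43 and −0.03 ± 0.54 in OE. At 20 weeks Ctrl replicate 1 had 140 CPM of Fkbp5 and 313 CPM of Tsc22d3. The other Ctrl libraries of that age had 33.0 to 51.6 and 74.1 to 128 CPM. In OE at 20 weeks Fkbp5 ran from 36.9 to 92.5 CPM and Tsc22d3 from 97.1 to 280 CPM. Of 11 chaperones of the steroid receptors, 3 were lower in Ctrl and 2 in OE with 0 higher (median −0.16 and −0.06). Bag1, an HSP70 co-chaperone, fell by 0.72 and 0.55, and Fkbp4, an immunophilin of the receptor complex, by 0.71 and 0.56. Dnaja1 was lower in Ctrl (−0.57 ± 0.15) and not called in OE (−0.29 ± 0.15).

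Of 17 genes tested that make or break down steroid and thyroid hormones, 2 were higher and 5 lower in Ctrl, and 3 higher and 3 lower in OE (median −0.19 and −0.02). Hsd11b1, the enzyme that regenerates active glucocorticoid inside cells, fell from 71.9 ± 16.1 to 21.5 ± 6.63 CPM in Ctrl (−1.74 ± 0.33, adjusted p = 0.00120) and from 71.2 ± 13.8 to 27.3 ± 15.3 CPM in OE (−1.39 ± 0.33, 0.00835). H6pd, which supplies its cofactor in the endoplasmic reticulum, fell by 0.65 and 0.73. Ephx1, a microsomal epoxide hydrolase, rose by 0.79 and 0.61, and Srd5a3, of the steroid reductase family, by 0.54 in each.

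Both thyroid hormone receptor genes were lower at 20 weeks in Ctrl. Thra (gene ID 21833, chromosome 11, 98740776 to 98769006) had 136, 184, 175 and 160.1 CPM in Ctrl at 8 weeks and 86.9, 83.0, 84.2 and 95.2 CPM at 20 weeks. Values in OE were 162, 134, 176 and 161 CPM at 8 weeks and 136, 73.2, 106 and 73.1 CPM at 20 weeks. The ages were well apart in Ctrl, whereas in OE replicate 1 at 20 weeks reached just above the lowest 8-week value. Thra fell 1.87-fold in Ctrl (−0.91 ± 0.17, adjusted p = 0.00123) and 1.63-fold in OE (−0.70 ± 0.17, 0.0101). With 2 surrogate variables neither was called (−0.33, 0.246, and −0.40, 0.0586). The gene overlaps Nr1d1 on the genome, and the strand setting of the counting is not given in the sources used here. Nr1d1 itself was not called, at −0.64 ± 0.26 in Ctrl and −0.75 ± 0.26 in OE.

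Thrb, the thyroid hormone receptor beta gene, had 25.0, 32.2, 23.0 and 26.6 CPM in Ctrl at 8 weeks and 17.4, 13.1, 12.7 and 21.7 CPM at 20 weeks, which did not overlap. OE replicates 1 to 4 had 31.7, 22.8, 36.4 and 29.2 CPM at 8 weeks and 27.8, 16.8, 18.8 and 16.1 CPM at 20 weeks, where replicate 1 lay among the 8-week values. Thrb fell 1.65-fold in Ctrl (−0.72 ± 0.21, adjusted p = 0.0151) and was not called in OE (−0.60 ± 0.21, 0.0525). The Ctrl call was lost without Ctrl replicate 2 or 3 at 20 weeks (0.0512 and 0.0530) and with 2 surrogate variables (−0.24, 0.582). Thrb was called in OE in 8 alternative fits, among them those with DESeq2 (0.0209) and without OE replicate 1 at 20 weeks (−0.79, 0.00809).

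The retinoic acid receptor genes, RXR beta and the vitamin D receptor gene were not called with age in either genotype in the main fit. Alternative fits called Rara (3 fits), Rarg (2) and Rxrb (4) in Ctrl, and Rarg (3) in OE. Rara differed by −0.22 ± 0.12 in Ctrl and 0.19 ± 0.12 in OE, and Rarg by −0.28 ± 0.13 and −0.32 ± 0.13. Rarb, itself a retinoic acid target, had 0.93 ± 0.40 and 0.76 ± 0.40, and it was called in 4 alternative fits in Ctrl and 1 in OE. Among those in Ctrl was the fit without Ctrl replicate 1 at 8 weeks (1.41), the library with its highest 8-week value. Rxrb had 0.23 ± 0.09 and 0.10 ± 0.09, and Vdr, at 1.47 to 4.54 CPM over all libraries, −0.44 ± 0.31 and −0.29 ± 0.31. Of 11 retinoic acid response genes tested, 2 were higher and 1 lower in Ctrl, and 3 higher and 1 lower in OE (median 0.35 and −0.13). The list includes Rarb and Nrip1. Dhrs3, which turns retinal back into retinol, rose by 0.90 ± 0.18 and 0.69 ± 0.18, and Tgm2, a transglutaminase, by 0.35 ± 0.10 and 0.44 ± 0.10. Rai14 was higher in OE (0.48 ± 0.12) and not called in Ctrl (0.22 ± 0.12). The lower gene was Nrip1, described with the coregulators.

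Esrra encodes an oestrogen-related receptor that drives genes of mitochondrial respiration without a known hormone. It had 45.2, 34.6, 43.9 and 41.0 CPM in OE at 8 weeks and 53.9, 52.4, 49.3 and 52.0 CPM at 20 weeks, which did not overlap. In Ctrl it had 47.0, 52.1, 54.1 and 37.4 CPM at 8 weeks and 50.9, 57.1, 57.3 and 51.9 CPM at 20 weeks, which did. Esrra rose 1.26-fold in OE (0.33 ± 0.11, adjusted p = 0.0383) and was not called in Ctrl (0.19 ± 0.11, 0.175). The OE call was lost without any of OE replicates 2, 3 and 4 at either age (adjusted p from 0.0565 to 0.0941) and with the replicate numbers as a block (0.0527). Esrra overlaps Trmt112, which was not called (0.24 ± 0.11 in Ctrl and 0.12 ± 0.11 in OE). Esrrg ranged from 0.770 to 7.14 CPM, with its lowest values in the replicates numbered 1 at 8 weeks, and differed by −0.62 ± 0.56 in Ctrl and 0.17 ± 0.56 in OE. With 2 surrogate variables its Ctrl difference was 1.53 (adjusted p = 0.0205), the opposite sign, and its OE difference was 1.76 (0.00220), which was then called. Of 15 respiratory genes listed as ERR targets and tested, 8 were lower and 0 higher in Ctrl (median −0.40, and −0.19 in OE). In OE 2 were lower and 1 was higher, Esrra itself. Slc25a4, the ADP/ATP carrier, fell by 0.57 ± 0.11 in Ctrl and 0.45 ± 0.11 in OE. Mfn2, a mitofusin, and Ndufs1 were lower in Ctrl (−0.58 ± 0.14 and −0.45 ± 0.13) and not called in OE (−0.38 ± 0.14 and −0.29 ± 0.13).

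The NR4A receptors are orphan receptors whose genes are switched on within minutes of a stimulus, like Fos and the Egr genes, and cAMP signalling is a known inducer. The 250 bases before a RefSeq start are shown for Nr4a1 and Nr4a2 because the values below set them against those other early genes. The cAMP response core TGACG, or CGTCA on the other strand, is in capitals. The windows are chr15:101266596-101266845 on the plus strand for Nr4a1 and chr2:57124004-57124253 on the minus strand for Nr4a2. That of Nr4a1 lies inside the annotated gene, 101253902 to 101274795, before a start downstream of the gene's first base.

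Nr4a1: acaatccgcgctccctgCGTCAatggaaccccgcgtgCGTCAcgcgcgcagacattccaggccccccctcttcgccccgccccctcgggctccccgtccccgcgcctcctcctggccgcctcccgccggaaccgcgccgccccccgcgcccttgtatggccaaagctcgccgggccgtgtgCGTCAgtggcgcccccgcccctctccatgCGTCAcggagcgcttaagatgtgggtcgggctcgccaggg
Nr4a2: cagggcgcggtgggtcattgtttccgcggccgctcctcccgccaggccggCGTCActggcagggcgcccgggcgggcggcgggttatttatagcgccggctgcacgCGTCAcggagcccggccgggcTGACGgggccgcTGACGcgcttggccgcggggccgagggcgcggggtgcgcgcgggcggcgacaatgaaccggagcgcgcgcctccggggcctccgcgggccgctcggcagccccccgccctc

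Each holds it 4 times. The window of Nr4a3, chr4:48045055-48045304 on the plus strand, also holds it 4 times, though part of that window is an annotated exon. Of all 32851 RefSeq windows of this length, 17.8% hold it at least once and 0.137% at least 4 times. The core contains a CpG, and that share is not one for windows of like base content. GC content was 74.4% for Nr4a1, 80.0% for Nr4a2 and 63.6% for Nr4a3, against a median of 52.4% over all windows. Their ratios of observed to expected CpG were 1.05, 1.10 and 0.725, against a median of 0.373. The full element TGACGTCA, in which the core and its reverse overlap, is in none of the 3 windows. Nr4a1 had 14.3, 17.9, 20.6 and 27.7 CPM in Ctrl at 8 weeks and 15.1, 11.02, 18.6 and 13.0 CPM at 20 weeks. In OE it had 14.7, 21.04, 10.3 and 13.97 CPM at 8 weeks and 17.6, 9.85, 11.3 and 9.09 CPM at 20 weeks. The ages overlapped in both genotypes. The age differences were −0.48 ± 0.26 in Ctrl and −0.33 ± 0.26 in OE for Nr4a1, −0.93 ± 0.38 and −0.59 ± 0.38 for Nr4a2 and −0.29 ± 0.27 and −0.47 ± 0.27 for Nr4a3, and none was called. Nr4a2 in Ctrl did not overlap between the ages, at 2.07 to 6.02 CPM at 8 weeks and 1.46 to 1.88 CPM at 20 weeks. Its edgeR adjusted p in Ctrl was 0.0638, and 3 alternative fits called it lower there. Nr4a2 was highest at 8 weeks in the epididymal pair, at 6.02 CPM in Ctrl replicate 4 and 5.36 CPM in OE replicate 2, against 2.01 to 2.68 CPM in the other 8-week libraries.

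Of 21 other immediate early genes tested, 9 were higher and 1 (Fosb, −0.97 ± 0.32) lower in Ctrl, and 11 were higher and 0 lower in OE (median 0.42 and 0.44). Fos rose from 13.5 ± 5.24 to 87.6 ± 28.0 CPM in Ctrl (2.70 ± 0.35, adjusted p = 9.58e-05) and from 15.7 ± 5.80 to 87.8 ± 23.1 CPM in OE (2.48 ± 0.34, 0.000522). Atf3 rose by 3.82 ± 0.44 and 3.44 ± 0.43, Egr2 by 2.64 ± 0.42 and 2.40 ± 0.41 and Junb by 1.23 ± 0.21 and 1.39 ± 0.21. The difference between these genes and the NR4A genes was not itself tested. The macrophage sums given above were higher at 20 weeks in the same groups, and their part was not tested.

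**Figure D4:**
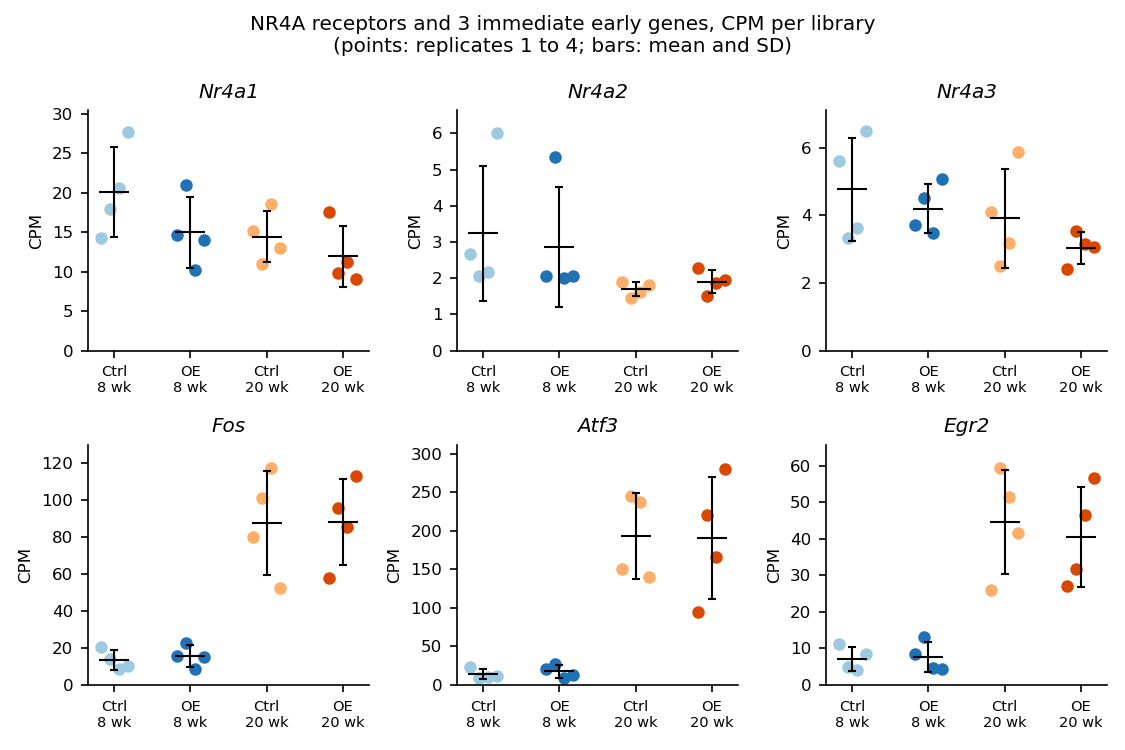
CPM per library of Nr4a1, Nr4a2 and Nr4a3 (top) and of Fos, Atf3 and Egr2 (bottom) in the 4 groups, with the mean and SD as bars (n = 4). The 20-week points of Fos, Atf3 and Egr2 lie above all 8-week points, while those of Nr4a1 and Nr4a3 overlap them.

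The COUP-TF genes Nr2f1 and Nr2f2 encode orphan receptors with roles in vessel identity and in holding back adipocyte differentiation. Nr2f2 (gene ID 11819, chromosome 7, 70351946 to 70366746) had 20.9, 39.3, 39.0 and 62.2 CPM in Ctrl at 8 weeks and 13.3, 11.3, 12.9 and 14.1 CPM at 20 weeks. The OE libraries had 17.6, 52.5, 34.5 and 38.4 CPM at 8 weeks and 23.0, 12.7, 15.5 and 13.0 CPM at 20 weeks. The ages did not overlap in Ctrl, whereas in OE the replicates numbered 1 lay in reverse order. The highest 8-week value of each genotype was that of the epididymal library. Nr2f2 fell 3.13-fold in Ctrl (−1.65 ± 0.33, adjusted p = 0.00176) and 2.23-fold in OE (−1.16 ± 0.33, 0.0209). Without the epididymal pair the log2 fold change was −1.36 in Ctrl (0.00304) and −0.91 in OE (0.0335). The OE call was lost without OE replicate 2, 3 or 4 at 20 weeks or 2 or 4 at 8 weeks (adjusted p from 0.0507 to 0.0699) and with the replicate block (0.0543). Smooth muscle sums were 943 to 4102 CPM at 8 weeks and 426 to 576 CPM at 20 weeks in Ctrl, and 1000 to 4072 and 526 to 845 CPM in OE. The endothelial sums were lower at 20 weeks too, and the part of both was not tested. The 250 bases before the Nr2f2 start, chr7:70366747-70366996 on the minus strand, are shown beside those of Esr1, the other receptor with a wide step. The letters CCAAT or ATTGG, in capitals, occur 2 times, and 33.8% of all windows hold at least 1.

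Nr2f2: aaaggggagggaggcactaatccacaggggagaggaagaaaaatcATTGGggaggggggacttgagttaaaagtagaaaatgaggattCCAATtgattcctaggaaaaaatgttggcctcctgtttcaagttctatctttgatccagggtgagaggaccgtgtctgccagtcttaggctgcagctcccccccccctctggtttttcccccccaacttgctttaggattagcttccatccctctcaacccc

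Nr2f1, at a lower level, had 5.43, 9.59, 9.52 and 5.98 CPM in OE at 8 weeks and 3.83, 3.01, 3.93 and 3.34 CPM at 20 weeks, with no overlap. In Ctrl it had 5.29, 7.79, 6.37 and 10.04 CPM at 8 weeks and 3.10, 5.85, 5.75 and 4.28 CPM at 20 weeks, with overlap. It fell 2.16-fold in OE (−1.11 ± 0.26, adjusted p = 0.00750), a call kept in all 25 alternative fits, and was not called in Ctrl (−0.64 ± 0.26, 0.0597). The difference of the age changes was −0.48 ± 0.36 and not called. Nr2f6 (−0.14 ± 0.10 in Ctrl and −0.05 ± 0.10 in OE) and the testicular receptor genes Nr2c1 (0.21 ± 0.09 and 0.03 ± 0.09) and Nr2c2 (0.16 ± 0.10 and −0.09 ± 0.10) were not called.

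Of the remaining orphan receptors, Rora, which takes part in the circadian clock, ranged from 35.8 to 61.5 CPM and differed by −0.25 ± 0.14 in Ctrl and −0.12 ± 0.14 in OE. Nr5a2, a regulator of bile acid and steroid genes in liver and gonad, ranged from 1.17 to 3.90 CPM. Its Ctrl values did not overlap between the ages (2.97 to 3.84 CPM at 8 weeks and 1.74 to 2.40 at 20 weeks), yet the difference of −0.67 ± 0.37 was not called (adjusted p = 0.160), and in OE it was 0.05 ± 0.37. Nr6a1, the germ cell nuclear factor gene, differed by −0.09 ± 0.28 and −0.11 ± 0.28. Nr0b2, a receptor that lacks a DNA-binding domain, had 21 reads in all, 13 of them in Ctrl at 20 weeks, and was at 0 in 10 of 16 libraries.

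Ncoa3 (gene ID 17979, chromosome 2, 165992637 to 166073242), a coactivator of the p160 family, had 60.3, 51.8, 51.3 and 71.7 CPM in Ctrl at 8 weeks and 103, 118, 128 and 92.9 CPM at 20 weeks. Values in OE were 53.7, 84.2, 60.8 and 58.1 CPM at 8 weeks and 76.1, 102, 89.1 and 109.6 CPM at 20 weeks. The ages were separate in Ctrl, and in OE replicate 1 at 20 weeks lay below replicate 2 at 8 weeks, the epididymal library. Ncoa3 rose 1.88-fold in Ctrl (0.91 ± 0.16, adjusted p = 0.000784), called in all 25 alternative fits, and 1.47-fold in OE (0.55 ± 0.16, 0.0253). The OE call was lost without OE replicate 2 or 4 at 20 weeks, without 1, 3 or 4 at 8 weeks (adjusted p from 0.0672 to 0.0865) and when only the groups compared were fitted (0.0560).

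Nrip1 encodes a corepressor that holds back energy expenditure genes in fat. It had 122, 194, 96.4 and 124 CPM in Ctrl at 8 weeks and 91.0, 60.5, 51.4 and 69.5 CPM at 20 weeks. OE replicates 1 to 4 had 128, 139, 205 and 172 CPM at 8 weeks and 81.9, 73.9, 56.9 and 61.9 CPM at 20 weeks. The ages did not overlap in either genotype. Nrip1 fell 1.97-fold in Ctrl (−0.98 ± 0.23, adjusted p = 0.00421) and 2.35-fold in OE (−1.23 ± 0.23, 0.00207), and the Ctrl call was lost with 2 surrogate variables (−0.68, 0.236).

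Ncor1, the core of a corepressor complex with histone deacetylase activity, had 183, 198, 159.9 and 222 CPM in Ctrl at 8 weeks and 162, 157, 149.9 and 159.8 CPM at 20 weeks. In OE it had 189, 184, 231 and 189.9 CPM at 8 weeks and 169, 154, 154 and 154 CPM at 20 weeks. The ages overlapped in Ctrl, where replicate 3 at 8 weeks lay just below replicate 1 at 20 weeks, and did not overlap in OE. Ncor1 fell 1.21-fold in Ctrl (−0.28 ± 0.10, adjusted p = 0.0331) and 1.26-fold in OE (−0.33 ± 0.10, 0.0245). The Ctrl call was lost in 11 of 25 alternative fits, among them those without any single Ctrl replicate at 20 weeks, without Ctrl replicate 2 or 4 at 8 weeks, without the epididymal pair (−0.20, 0.0817) and with the replicate block (0.0640). The OE call was lost in 6, without OE replicate 2, 3 or 4 at 20 weeks or 3 at 8 weeks (adjusted p from 0.0627 to 0.0882), without the count filter and with 2 surrogate variables. Ncor1 overlaps Ttc19 on the genome.

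Ncoa1, another p160 coactivator, had 57.7, 64.0, 59.0 and 63.6 CPM in Ctrl at 8 weeks and 51.3, 50.2, 54.3 and 54.8 CPM at 20 weeks. The OE libraries had 58.1, 60.6, 66.6 and 64.1 CPM at 8 weeks and 55.6, 49.2, 54.8 and 52.8 CPM at 20 weeks. The step was small. No 20-week library reached an 8-week library of its genotype, as for 14.8% of all genes tested in Ctrl and 9.50% in OE. Ncoa1 fell 1.16-fold in Ctrl (−0.21 ± 0.06, adjusted p = 0.0180) and 1.17-fold in OE (−0.23 ± 0.06, 0.0189). The Ctrl call was lost without Ctrl replicate 2 at either age (0.0566 at 20 weeks and 0.0523 at 8 weeks), and the OE call without OE replicate 2 at 20 weeks (0.0716) or 3 or 4 at 8 weeks (0.0666 and 0.0566), without the count filter (0.0725) and with only the groups compared (0.0589). With 2 surrogate variables neither was called (−0.12, 0.447, and −0.17, 0.145). Ncoa2, the remaining p160 gene, was not called, with −0.07 ± 0.05 in Ctrl and −0.11 ± 0.05 in OE.

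Among 26 other coregulators tested, 6 were higher and 5 lower in Ctrl, and 3 higher and 3 lower in OE (median 0.10 and 0.03). Calls in either direction over all genes tested were 40.9% in Ctrl and 23.0% in OE, so these counts were near that background. Tbl1xr1 and Gps2, subunits of the NCOR1 complex, rose, Tbl1xr1 by 0.50 ± 0.08 in Ctrl and 0.46 ± 0.08 in OE, and Gps2 by 0.44 ± 0.10 and 0.31 ± 0.10. Kat2b, an acetyltransferase coactivator, fell by 0.37 ± 0.09 and 0.31 ± 0.09. Hr, a corepressor of thyroid hormone receptors, was lower in Ctrl (−1.18 ± 0.29, adjusted p = 0.00622) and not called in OE (−0.40 ± 0.29, 0.334).

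No difference between OE and Ctrl passed the test. Of 29 genes tested, 0 were called between OE and Ctrl at 8 weeks, where 4 genes of the whole table were higher (0.0208%), and 0 at 20 weeks, where 5 were higher (0.0261%). Averaged over both ages, 0 were called, beside 7 genes higher (0.0365%). By edgeR 0 genes of the table were lower in OE, while DESeq2 called 5 lower at 8 weeks, 19 at 20 weeks and 3 on average. DESeq2, limma voom and all the other fits also called 0 of these genes. At an unadjusted p under 0.05, there were 2 at 8 weeks (Rara and Ncoa2), 0 at 20 weeks, 1 on average (Ncoa2) and 1 for the difference of the age changes (Rara). Among all 19189 genes tested, 424 passed that cut at 8 weeks, 762 at 20 weeks, 389 on average and 650 for the difference. Whether the members passed more often than all genes was not tested. The log2 fold changes of the genes other than Pgr ran from −0.48 to 0.26 at 8 weeks and from −0.43 to 0.60 at 20 weeks.

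The genes with the smallest p at 8 weeks were Rara, Ncoa2 and Esrra. Rara, the retinoic acid receptor alpha gene, had 31.0, 27.0, 22.0 and 25.8 CPM in OE and 39.1, 33.4, 32.9 and 26.2 CPM in Ctrl, which overlapped (−0.31 ± 0.12, edgeR adjusted p = 1). At 20 weeks it had 31.7, 28.3, 33.9 and 26.8 CPM in OE and 30.9, 26.3, 27.5 and 28.1 CPM in Ctrl (0.10 ± 0.12). The difference of its age changes was 0.41 ± 0.18, with an edgeR adjusted p of 0.982. Esrra differed by −0.21 ± 0.11 at 8 weeks, with the values given above.

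Ncoa2 was slightly higher in OE at both ages, a difference that was not called at either. It had 78.4, 79.6, 79.0 and 78.3 CPM in OE and 72.4, 76.5, 67.2 and 74.3 CPM in Ctrl at 8 weeks. At 20 weeks it had 75.4, 74.7, 70.9 and 71.7 CPM in OE and 69.1, 68.9, 70.3 and 67.9 CPM in Ctrl. Every OE library lay above every Ctrl library of its age, a pattern that 0.787% of all genes tested showed at 8 weeks and 1.24% at 20 weeks. The differences were 0.12 ± 0.05 at 8 weeks, 0.08 ± 0.05 at 20 weeks and 0.10 ± 0.04 on average, with edgeR adjusted p of 1, 0.996 and 1. The fold on average was 1.07.

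At 20 weeks the smallest p-values were those of Nr2f1, Ncoa2 and Nr2c2. Nr2f1 differed by −0.43 ± 0.26 in the values given above, which overlapped. Nr2c2, a testicular receptor gene, had 44.8, 39.9, 43.0 and 42.3 CPM in OE and 45.1, 47.4, 50.4 and 46.9 CPM in Ctrl, a difference of −0.16 ± 0.10. All OE libraries lay below all Ctrl libraries, as for 1.49% of all genes tested. Nr2c2 overlaps Mrps25 on the genome, and the part of that overlap was not tested. At 8 weeks it had 41.9, 47.3, 43.8 and 48.2 CPM in OE and 36.7, 48.1, 35.8 and 49.3 CPM in Ctrl, which overlapped (0.09 ± 0.10). Esr1 differed between genotypes by −0.09 ± 0.29 at 8 weeks and 0.34 ± 0.29 at 20 weeks, and Nr3c1 by −0.06 ± 0.11 and 0.10 ± 0.11.

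**Figure D5:**
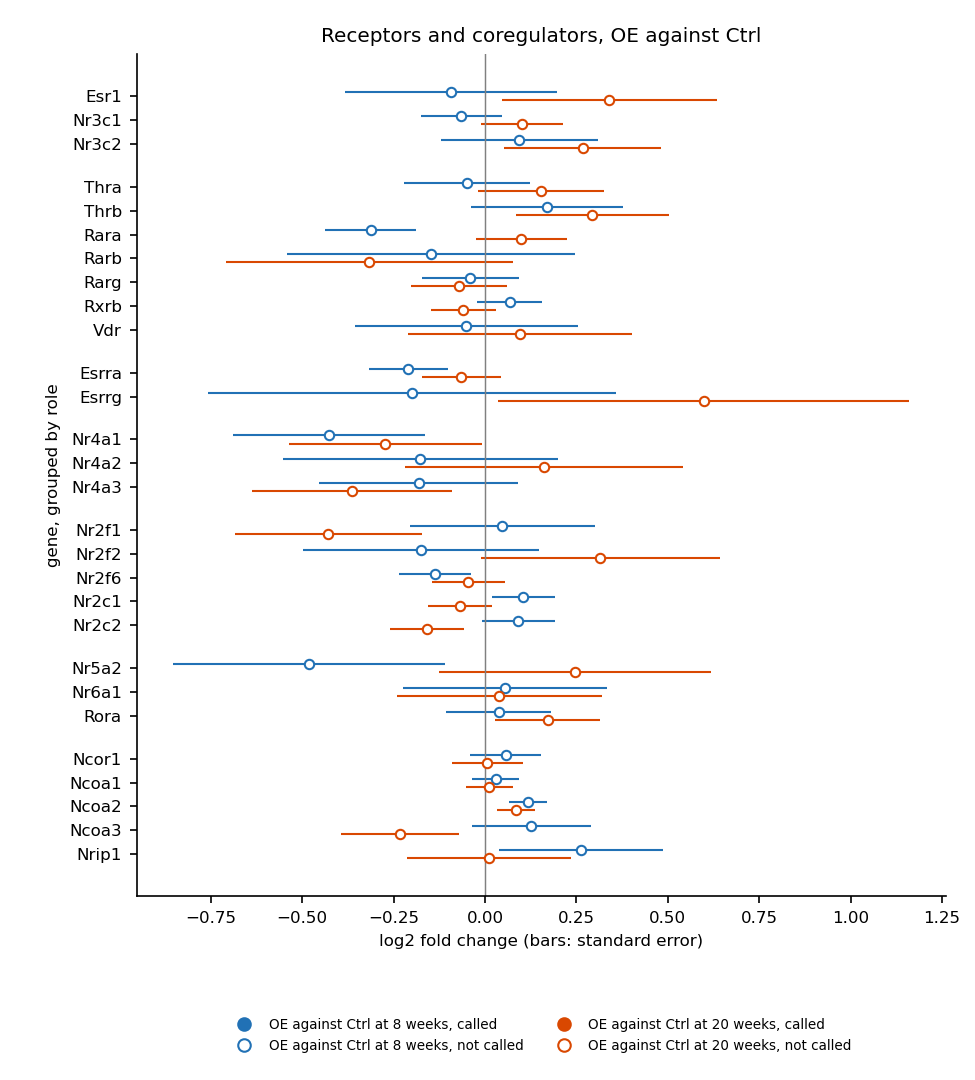
Log2 fold change of OE against Ctrl, with its standard error as a bar, at 8 weeks (blue) and 20 weeks (orange) for 28 of the 29 genes tested (Pgr is left out). All points are open, since none passed an adjusted p of 0.05. The widest bars are those of Esrrg, whose value at 20 weeks is 0.60.

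RefSeq promoter windows of 250 bases were found for 27 of the 31 genes, in 42 entries. Their median GC content was 61.2%, against 52.4% over all 32851 windows, and the median ratio of observed to expected CpG was 0.601 against 0.373. The GC box GGGCGG, or CCGCCC on the other strand, was in 54.8% of the entries and 32.7% of all windows. The nuclear receptor core AGGTCA, or TGACCT, was in 9.52% of the entries (Nr5a2, Nr6a1, Rarg and Thrb) and 14.02% of all windows. The glucocorticoid-type core AGAACA, or TGTTCT, was also in 9.52% of the entries (Ncor1, Nr5a2 and Thrb) and in 16.1% of all windows. CCAAT or ATTGG was in 26.2% of the entries against 33.8% of all windows, and TGACG or CGTCA in 23.8% against 17.8%. These are matches of letters in a window and were not tested.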

How the data were processed

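RNA from epididymal white adipose tissue of 16 mice, 4 in each of 4 groups, was sequenced after a poly(A) strand-marking library kit, per the labels' protocols. The submitters' processing notes name bcl2fastq 2.20.0, Trimmomatic, HISAT2 2.1.0, StringTie 2.1.3b and the build mm10. Whether reads were counted by strand, and with which gene annotation, is not given in the sources used here. The authors deposited a raw read count per gene and library, which was used for all tests. The authors also deposited FPKM values, which were not used, and TPM values, used only to compare levels between genes. Samples were grouped by the labels, which tie each library to 1 mouse only through its title, so p-values measure the spread between these samples. The members and gene lists were chosen with earlier results of these data known.

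Counts were filtered with edgeR 4.0.16 (filterByExpr, minimum count 10), scaled by TMM and fitted over all 16 libraries in 1 model of 4 groups with 12 residual degrees of freedom. The quasi-likelihood test gave 6 contrasts, adjusted by Benjamini-Hochberg over 19189 genes, and adjusted p under 0.05 was a call. Log2 fold changes are edgeR's, and each standard error is the fold change divided by the square root of its F statistic. CPM values are per TMM-scaled library, and principal components used log2 CPM with a prior count of 2. The fit was tested on simulated data. Other fits used DESeq2 1.42.0, limma 3.58.1 (voom), sva 3.50.0, other filters and fewer libraries, in R 4.3.3. Descriptions and figures used Python 3.11.15, pandas 2.3.3 and matplotlib 3.10.9. Values in every library are given for up to 4 called members of each role with the smallest adjusted p, and for the 3 with the smallest p in each genotype comparison. Up to 4 called genes are named from each other list by the same order, and some are not reported here. Promoter sequences are those of RefSeq on GRCm38.p6, the build mm10. Nr3c1, Thra, Ncoa2 and Ncoa3 had no entry.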

Additional observations from a re-analysis of the deposited data

Results flagged for a closer look

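In 8 of 116 groups of 4 values checked, 1 library lay far from the other 3 of its group, where chance gives about 1 in 20 groups (5.8). OE replicate 1 at 20 weeks, which also stood apart on the first principal component, accounted for 4 of them. It had 33.6 CPM of Esr1 against 17.5 to 19.8 in the other 3 libraries, 54.3 CPM of Rora against 42.3 to 43.7, 169 CPM of Ncor1 against 153.6 to 154.2, and 0.0491 CPM of Pgr (2 reads) against 0. Without that library the Esr1 difference between ages in OE was −1.75 (edgeR adjusted p = 0.00124).

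Nr4a2 was high in both libraries with epididymal transcripts, at 6.02 CPM in Ctrl replicate 4 at 8 weeks against 2.07 to 2.68 in its group, and at 5.36 CPM in OE replicate 2 at 8 weeks against 2.01 to 2.06. Rarb was at 9.34 CPM in Ctrl replicate 4 at 20 weeks against 3.01 to 3.65, and Ncor1 at 231 CPM in OE replicate 3 at 8 weeks against 184 to 189.9.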

How the results depend on the processing

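The counts between OE and Ctrl, and for the difference of the age changes, were 0 of 29 under every alternative run. Esr1, Nr2f2 and Ncoa3 in Ctrl, and Esr1, Nr2f1 and Nrip1 in OE, were called in all 25 alternative fits. Some genes not called with age in the main fit were called in alternative fits. Beside those named above, these were Nr2f1 (3 fits), Nr2c1 (2), Nr3c2 (1), Nr5a2 (1) and Rora (1) in Ctrl. In OE they were Pgr (4) and Ncoa2 (1). The 1 gene higher in Ctrl became 2 with DESeq2, 4 with limma voom, 2 with 2 surrogate variables, 2 without the libraries with epididymal transcripts and 2 without the 3 libraries that stood apart, and 1 to 2 with a single library left out (2 without Ctrl replicate 4 at 20 weeks, Ctrl replicate 1 or 4 at 8 weeks or OE replicate 4 at 8 weeks). The 9 lower in Ctrl became 11 with DESeq2, 13 with limma voom, 2 with 2 surrogate variables and 6 to 10 with a single library left out. Over all genes, the 4083 lower in Ctrl became 4759 with DESeq2, 5367 with limma voom and 675 with 2 surrogate variables. The 3770 higher in Ctrl became 4039, 5146 and 1083 in the same fits. With a single library left out, the all-gene count of lower ran from 2518 to 4318 and that of higher from 2965 to 3840. The 8 lower in OE became 10 with DESeq2, 11 with limma voom, 6 without the count filter, 5 with 2 surrogate variables and 4 to 10 with a single library left out, with 4 without OE replicate 2 at 20 weeks and 5 without OE replicate 4 at 20 weeks or replicate 3 at 8 weeks. The 2 higher in OE became 3 with 2 surrogate variables and 0 to 2 with a single library left out. They were 0 without OE replicate 2 or 4 at 20 weeks or replicate 3 or 4 at 8 weeks, and 1 without OE replicate 3 at 20 weeks or replicate 1 or 2 at 8 weeks. Over all genes, the 1902 lower in OE became 2780 with DESeq2, 3673 with limma voom and 1078 with 2 surrogate variables. Without the count filter 1348 of 31500 were lower in OE. A single library left out gave 1014 to 2679 lower in OE. The 2509 higher in OE became 1617 with 2 surrogate variables and 1719 to 3107 with a single library left out. The difference of Esrrg in Ctrl, −0.62, turned to 1.53 with 2 surrogate variables, and that in OE went from 0.17 to 1.76 (the cause was not tested). With the replicate number as a block, 1 gene was higher and 8 lower in Ctrl, and 1 higher and 7 lower in OE, where Ncor1 in Ctrl and Esrra and Nr2f2 in OE were no longer called. Over all genes that fit called 3384 higher and 3161 lower in Ctrl, and 2262 higher and 1548 lower in OE. The replicate numbers share no stated animal, litter or day. Over 24 same-numbered pairs the correlation of deviations ran from −0.597 to 0.826, was over 0.1 in 2, and 1 correlated best with its own number. Low counts limit Pgr, Esr2 and Nr0b2.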
